A study of Homo sapiens with 6 samples.

Results

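Heat shock proteins and their partner chaperones were examined in SU-DHL-2 cells with and without IL-17A. The set holds 42 genes: the HSP70, HSP110 and HSP90 chaperones, HSP90 cochaperones, HSP40 (DNAJ) proteins, BAG proteins, 7 genes of the CCT ring, the chaperonin pair HSPD1 and HSPE1, the small heat shock protein HSPB1, and the heat shock factors HSF1 and HSF2. They were chosen by name, and their probes were found through the RefSeq accession that the array files give, among 19740 genes that could be named in this way. All 42 had at least 1 probe. Although most members work in the cytosol, HSPA9, DNAJA3, HSPD1 and HSPE1 act in mitochondria, HSPA13 is bound to microsomes, and HSF1 and HSF2 are transcription factors rather than chaperones.

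SU-DHL-2 is an established human diffuse large B cell lymphoma (DLBCL) line, and IL-17A is a cytokine secreted mainly by Th17 cells. In 1 group, 3 samples of SU-DHL-2 were exposed to IL-17A at 200 pg/ml for 72 h. In the other, 3 control samples were kept for 72 h without it, and no agent other than IL-17A separated the groups. RNA of each sample was labeled with Cy3 and read on 1 Agilent whole genome array, and the study used the comparison to look for genes through which IL-17A acts on DLBCL cells. All samples come from a single line, the labels do not say that they were grown independently, and p-values therefore measure the spread between these 6 samples, which may be partly technical.

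Chaperones bind proteins that are newly made or unfolded and keep them from aggregating. HSP70 binds short exposed stretches, with HSP40 proteins delivering the client and stimulating the ATPase and with HSP110 and BAG proteins exchanging the nucleotide. HSP90 receives clients such as kinases and steroid receptors from HSP70 and matures them with cochaperones, and the CCT ring folds actin and tubulin inside a closed chamber. Under stress, HSF1 forms trimers that bind heat shock elements, arrays of inverted 3-base units, and switches many of these genes on. HSP90 and its partners have been studied as drug targets in B cell lymphoma, whose oncogenic kinases are HSP90 clients.

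These elements were searched for in the RefSeq promoter windows of GRCh38.p14, which run from 250 bases before to 50 bases after each gene start. A pair of inverted units was read as GAANNTTC or TTCNNGAA (each is its own reverse complement, so 1 search covers both strands, and in a longer array the matches overlap), and a longer array as 3 units at the same spacing. The pair occurred in 13.5% of all 35116 windows and in 37.3% of the 51 windows found for 37 members. Arrays of 3 units occurred in 0.49% of all windows and in 11.8% of the member windows, which belong to HSPA8, HSP90AA1, HSP90AB1, HSPD1, DNAJA1 and DNAJB6. In DNAJA1 the array lies after the gene start. The table held no window matched to HSPA14, ST13, FKBP4, BAG4 or HSF1. The windows of HSPA1A and HSPA1L overlap, some genes have several windows, and a match is a description of the sequence, not a measured site.

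Stretches around the matches are shown for genes whose values are given below. They hold pairs of inverted units, longer arrays, or both. Each is written 5′ to 3′ on the strand of its gene, with the matched units and the bases between them in capitals.
HSP90AA1, chr14:102087103-102087142, minus strand: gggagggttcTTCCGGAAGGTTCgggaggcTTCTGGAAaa
HSPA8, chr11:123062163-123062202, minus strand: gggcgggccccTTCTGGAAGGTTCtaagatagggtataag
HSP90AB1, chr6:44247767-44247852, plus strand: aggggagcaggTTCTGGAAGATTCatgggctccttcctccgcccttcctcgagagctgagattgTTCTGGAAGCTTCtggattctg
HSPD1, chr2:197500061-197500090, minus strand: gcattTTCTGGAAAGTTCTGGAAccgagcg
DNAJB1, chr19:14518428-14518485, minus strand: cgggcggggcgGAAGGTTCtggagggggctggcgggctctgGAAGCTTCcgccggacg
HSPA1A, chr6:31815425-31815456, plus strand: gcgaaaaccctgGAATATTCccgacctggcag
HSPA1B, chr6:31827621-31827652, plus strand: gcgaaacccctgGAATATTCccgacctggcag
HSP90AA1, HSPA8, HSP90AB1 and HSPD1 each hold an array of at least 3 units here, and DNAJB1 holds 2 separate pairs. HSPA1A and HSPA1B share the same pair in nearly identical flanks.

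Signals are given as log2 of the background-subtracted intensity after quantile normalization, and a log2 fold change is the IL-17A mean minus the control mean of these values. A probe was tested where it was detected on at least 3 of the 6 arrays, and each gene is described at its brightest tested probe. Of the 42 members, 41 passed that filter, and the exception was HSPA1L, a testis-enriched HSP70 whose probe was not well above background on any array. All 6 arrays measured 39 of the 41 well above background, the other two being HSPA1A and BAG3. A gene was called where its adjusted p from limma, by Benjamini-Hochberg over all 23945 tested probes, was under 0.05.

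The changes were small. The log2 fold changes ran from -0.66 to 0.30 with a median of -0.10, a change of -6.83% in signal, against a median of 0.0032 over all 14747 tested genes. In 30 members (73.2%) the IL-17A mean was the lower one and in 11 (26.8%) the higher, whereas 49.1% of all tested genes were lower. HSPA13 rose (1 member, 2.44%, against 4.37% of all genes called higher). FKBP4, DNAJA1, BAG5 and TCP1 fell (4 members, 9.76%, against 3.48% of all genes called lower). Their adjusted p-values from limma were close to the threshold, 0.037 to 0.0483.

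**Figure D1:**
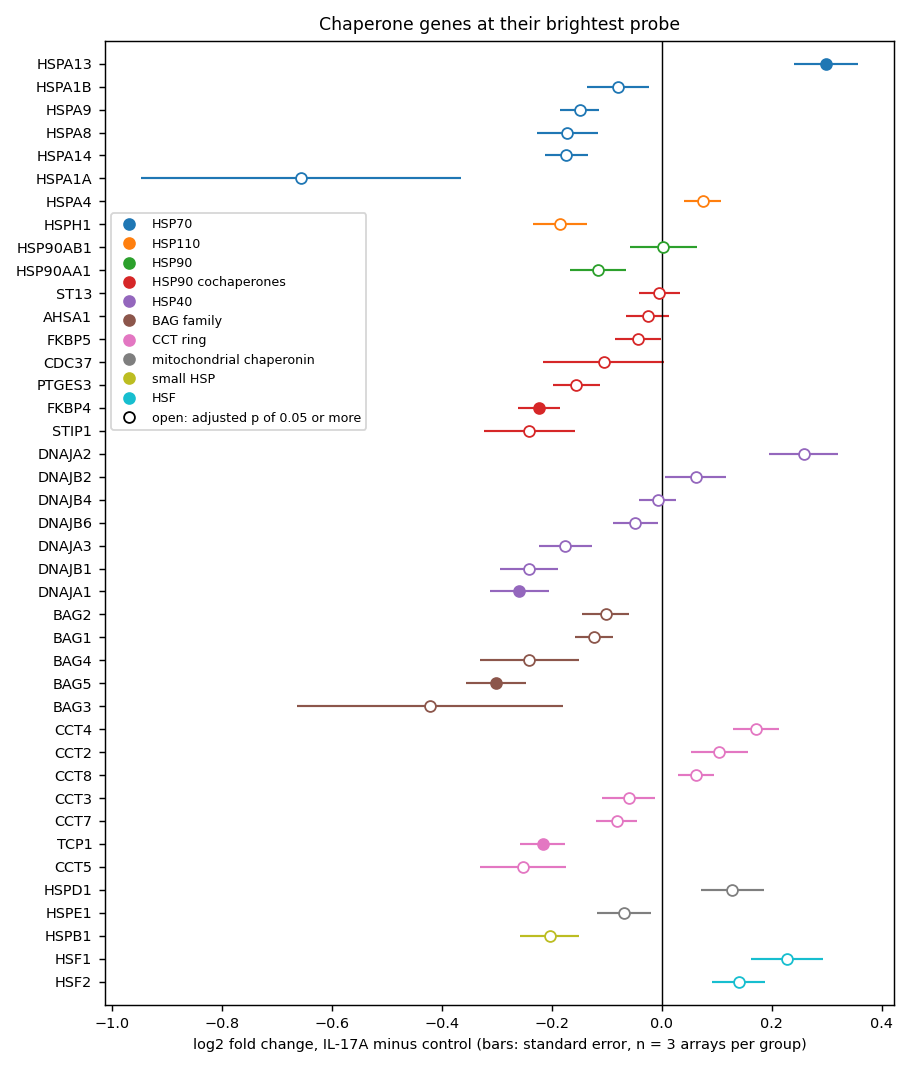
Log2 fold change (IL-17A minus control) of the 41 tested chaperone genes at their brightest probe, with the standard error as bars and n = 3 arrays per group; colours mark the classes, and filled points had an adjusted p under 0.05 from limma. The filled points are HSPA13 on the right and FKBP4, DNAJA1, BAG5 and TCP1 on the left, and 30 of the 41 points lie below 0.

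A further 16 members had an unadjusted p under 0.05 from limma and an adjusted p of 0.0534 to 0.139. With the 5 called genes, this makes 16 lower members (39.0%, against 14.8% of all tested genes) and 5 higher ones (12.2%, against 16.9%). The 3 IL-17A arrays all lay below the 3 control arrays in 19 members (46.3%), where this held for 19.3% of all tested genes. They all lay above in 9 members (22.0%), close to the 21.4% of all genes. The members were brighter, with a median log2 signal of 10.5 against 7.84 for all tested genes. The shares of all genes given here were not matched for signal. The median member lay 0.06, 0.10 and 0.13 below the control mean on IL-17A replicates 1, 2 and 3. The control arrays lay between -0.0022 and 0.01 from that mean. Each control is part of it, so these values do not give the replicate spread. No member reached a fold change of 1.5 with an unadjusted p under 0.05 from limma or from the test of the methods, against 1.92% of all genes with limma.

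**Figure D2:**
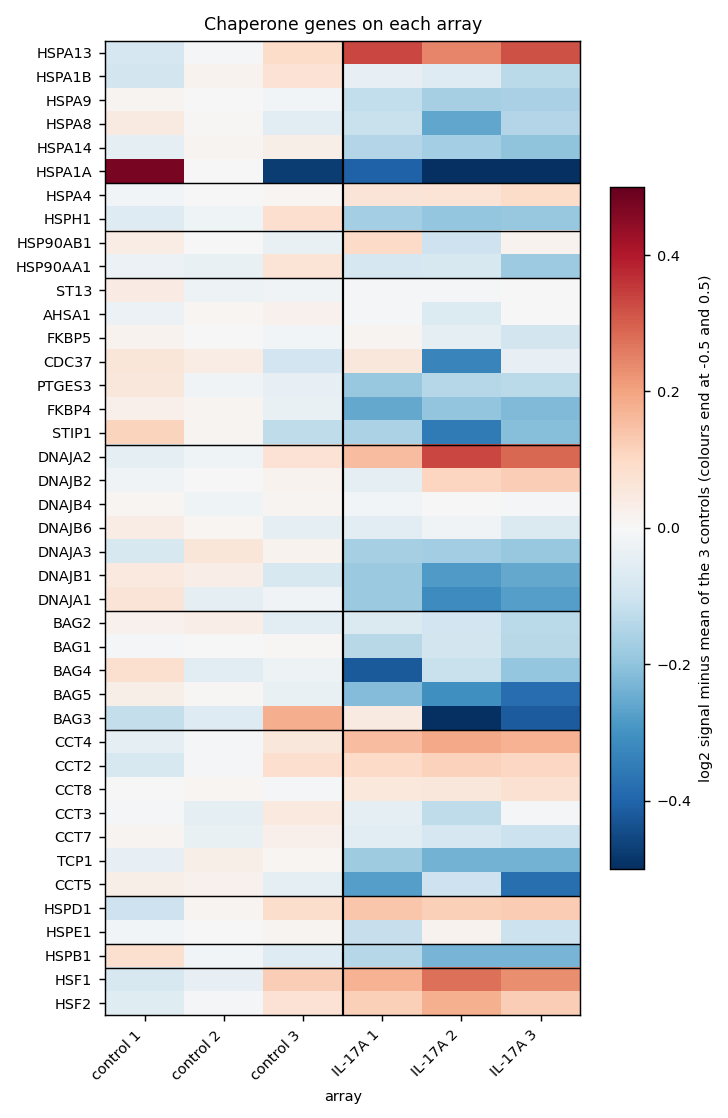
Log2 signal of each tested chaperone gene (row) on each array (column), minus the mean of the 3 controls; horizontal lines separate the classes, and colours saturate at -0.5 and 0.5. Blue, lower than the controls, prevails on the 3 IL-17A arrays among HSP70, HSP90 cochaperone and BAG genes, while HSPA13, DNAJA2, CCT4, HSF1 and HSF2 are red on all 3.

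The scan divided the arrays in a way that touches every value below. The file headers place IL-17A replicate 1 in the same scan as all 3 controls and the other IL-17A arrays, replicates 2 and 3, in a separate one. With scan as a block, which leaves the difference between IL-17A replicate 1 and the controls, 37 of the 41 members kept their direction, the change was smaller in 29, and the median was -0.06. No member then had an adjusted p under 0.05 (lowest 0.102, limma), while 7 lower members and 1 higher member had an unadjusted p under 0.05. The calls also needed nearly all arrays. Without any one of the IL-17A arrays, control replicate 1 or control replicate 2, no member was called, and without control replicate 3 only HSPA13 was. At the 75th percentile BAG5 and DNAJA1 kept their calls, while HSPA13, FKBP4 and TCP1 did not. The part of the scan in these values was not tested.

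**Figure D3:**
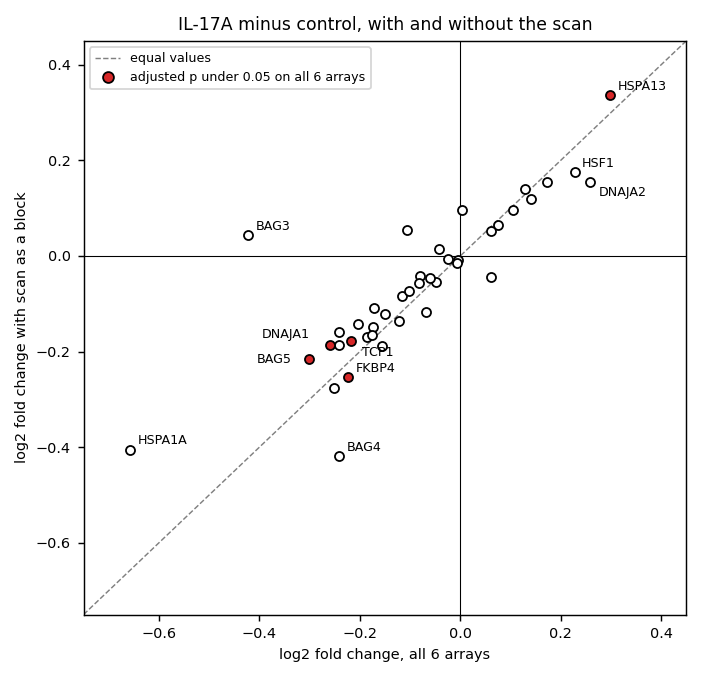
Log2 fold change of each tested chaperone gene from all 6 arrays (horizontal) against the value with scan as a block (vertical); the dashed line marks equal values and red points were called on all 6 arrays. The 5 called genes keep their sign, whereas BAG3 moves from -0.42 to 0.04.

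Among the HSP70 genes, 1 of 6 tested members rose, none fell, and 3 of the others were lower at an unadjusted p under 0.05 from limma. HSPA13, a microsome-associated HSP70 family member that lacks the usual peptide-binding domain, measured 10.24, 10.15 and 10.22 on IL-17A replicates 1 to 3 and 9.82, 9.89 and 10.00 on control replicates 1 to 3. Every IL-17A array lay above every control. The log2 fold change was 0.30 ± 0.0585 (SE, n = 3 per group), a gain of 23.0% (limma, adjusted p = 0.0452), and 0.34 with scan as a block.

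HSPA8, the constitutive HSP70 that carries most cytosolic clients, measured 11.01, 10.86 and 10.97 with IL-17A and 11.16, 11.12 and 11.06 in the controls. The groups did not overlap, yet the difference of -0.17 ± 0.0554 (SE, n = 3 per group) did not pass (limma, adjusted p = 0.105). HSPA14, a ribosome-associated HSP70, and HSPA9, the mitochondrial HSP70 that pulls proteins into the matrix, stood at -0.17 (adjusted p = 0.0558) and -0.15 (adjusted p = 0.0593) in limma, both without overlap.

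The heat-inducible pair HSPA1A and HSPA1B code for nearly identical proteins, and whether either probe also reads the other's transcript was not tested. HSPA1A was dim, with 2.46, 2.37 and 1.80 after IL-17A and 3.34, 2.87 and 2.39 in the controls, and IL-17A replicate 3 was not well above background. IL-17A replicate 1 lay above control replicate 3, so that the groups overlapped. Its log2 fold change of -0.66 ± 0.291 (SE, n = 3 per group) did not pass (limma, adjusted p = 0.189), and the value was -0.41 with scan as a block, -0.29 in the authors' table and -0.0466 with normexp. HSPA1B gave 7.14, 7.12 and 7.05 with IL-17A and 7.09, 7.20 and 7.26 without. Control replicate 1 lay among the IL-17A arrays, and the difference was -0.08 ± 0.0566 (SE, n = 3 per group; limma, adjusted p = 0.377).

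HSPH1 and HSPA4 are HSP110 chaperones, which exchange the nucleotide of HSP70 and hold unfolded clients. HSPH1 measured 12.71, 12.68 and 12.69 after IL-17A and 12.82, 12.86 and 12.96 in the controls at its brightest probe. All IL-17A arrays were lower, by 0.18 ± 0.0497 on the log2 scale (SE, n = 3 per group; limma, adjusted p = 0.0744). At its second probe HSPH1 read 11.62, 11.58 and 11.55 against 11.99, 11.89 and 11.97 and fell by 0.37 (limma, adjusted p = 0.0313). HSPA4 lay slightly higher at both of its probes, 0.07 and 0.08, with no call.

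HSP90AA1, the stress-inducible cytosolic HSP90, measured 14.70, 14.70 and 14.60 with IL-17A and 14.76, 14.75 and 14.85 without at its brightest probe. This gave -0.12 ± 0.0511 (SE, n = 3 per group; limma, adjusted p = 0.188) without overlap. Its dimmer probes fell, by 0.22 from 13.11, 13.10 and 13.06 to 12.82, 12.88 and 12.90 (adjusted p = 0.0418), and by 0.31 from 11.85, 11.84 and 11.79 to 11.50, 11.53 and 11.51 (limma, adjusted p = 0.0313). HSP90AB1, the constitutive paralog, measured 13.90, 13.70 and 13.82 with IL-17A and 13.84, 13.80 and 13.77 in the controls. IL-17A replicate 2 was the lowest and IL-17A replicate 1 the highest of the 6 arrays, and the log2 fold change was 0.0027 ± 0.0611 (SE, n = 3 per group; limma, adjusted p = 0.982). That sign turned with the scaling, to -0.07 when each array was set to its 75th percentile, -0.05 without normalization and -0.0091 with normexp background correction. The difference between the paralogs was not tested.

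**Figure D4:**
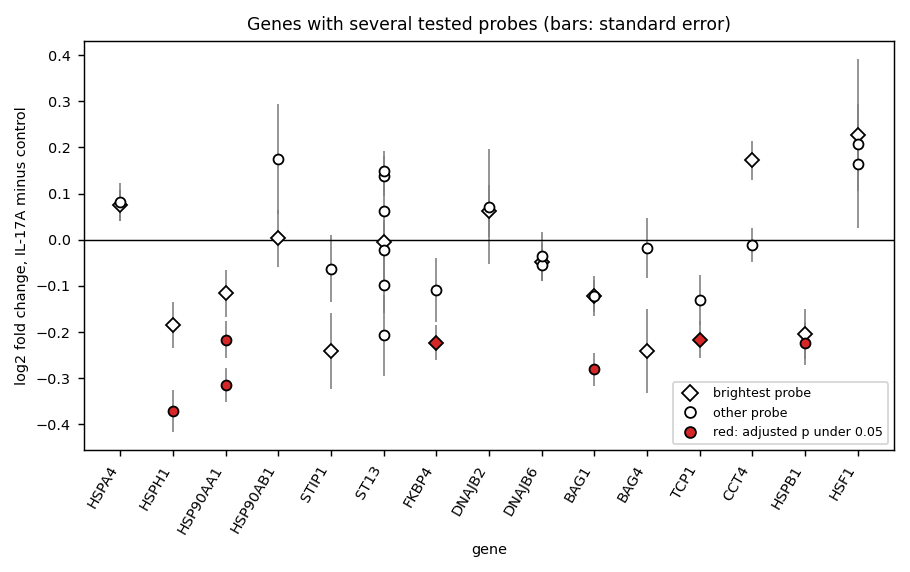
Log2 fold change (IL-17A minus control) at every tested probe of the 15 members with more than 1, with standard errors as bars; diamonds mark the brightest probe and red fill an adjusted p under 0.05 from limma. Signs agree within 13 of the 15 genes, and HSPH1, HSP90AA1, BAG1 and HSPB1 have a red probe that is not the brightest.

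The choice of probe decided several calls. Over all 65 tested member probes, 9 were lower and 1 higher at an adjusted p under 0.05 from limma, and they belong to 8 genes and 1 gene. Of all tested probes, 3.17% were called lower and 4.43% higher. To the 4 genes that fell at the brightest probe, the dimmer probes added HSPH1, HSP90AA1, BAG1 and HSPB1. Signs differed between probes in CCT4, and in ST13, whose 7 probes ran from -0.21 to 0.15. Taking the mean over the probes of a gene, 12 members were called, 11 lower and 1 higher, against 5.05% and 6.57% of all genes.

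The 7 cochaperones of HSP90 were all lower in mean, 1 of them with a call, although ST13 and AHSA1 changed sign at the 75th percentile and without normalization, and CDC37 and FKBP5 with scan as a block. FKBP4 (FKBP52), an immunophilin that joins HSP90 to steroid receptors, measured 9.85, 9.91 and 9.89 with IL-17A and 10.13, 10.12 and 10.07 without. The groups were well apart, and FKBP4 fell by 0.22 ± 0.0385 (SE, n = 3 per group; limma, adjusted p = 0.037), with a change of -0.25 when scan was a block. Its second probe stood at -0.11 with overlapping groups. FKBP5 (FKBP51), which competes with FKBP4 for HSP90, measured 9.14, 9.08 and 9.04 with IL-17A and 9.15, 9.13 and 9.12 without. IL-17A replicate 1 lay among the controls, and the difference was -0.04 ± 0.042 (SE, n = 3 per group; limma, adjusted p = 0.524). With scan as a block it was 0.01.

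STIP1, which bridges HSP70 and HSP90, and PTGES3 (p23), which stabilises the closed HSP90, stood at -0.24 (adjusted p = 0.119) and -0.16 (adjusted p = 0.0774) in limma, without overlap between the groups. The second probe of STIP1 was at -0.06 with overlapping groups, and at 0.07 with scan as a block. The kinase adaptor CDC37 stood at -0.11, with IL-17A replicate 2 at 9.09 and the other 5 arrays at 9.32 to 9.48, and was 0.05 with scan as a block. AHSA1, which stimulates the HSP90 ATPase, and ST13, which steadies HSP70, were within 0.03 of 0 at their brightest probe.

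Of the 7 HSP40 genes, 1 fell, and 5 were lower and 2 higher in mean (4 and 3 at the 75th percentile or without normalization, where DNAJB4 changed sign). DNAJA1, a cytosolic partner of HSP70, measured 10.89, 10.76 and 10.79 with IL-17A and 11.14, 11.02 and 11.05 in the controls. All IL-17A arrays lay below the controls, and DNAJA1 fell by 0.26 ± 0.0537 (SE, n = 3 per group; limma, adjusted p = 0.0483). IL-17A replicate 1 was the closest to the controls, and with scan as a block the change was -0.19. DNAJB1, the stress-inducible HSP40 that brings clients to HSP70, measured 8.41, 8.31 and 8.34 against 8.64, 8.63 and 8.51. Here too no arrays overlapped, and -0.24 ± 0.0531 (SE, n = 3 per group) fell just short of the threshold (limma, adjusted p = 0.0534).

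DNAJA3, the mitochondrial HSP40, stood at -0.18 (adjusted p = 0.0766) and DNAJA2, a close relative of DNAJA1, at 0.26 (limma, adjusted p = 0.0625), both without overlap. DNAJA2 measured 9.61, 9.79 and 9.75 after IL-17A and 9.41, 9.44 and 9.53 in the controls, opposite in sign to DNAJA1. DNAJB2, DNAJB4 and DNAJB6 lay between -0.05 and 0.06, each with overlapping groups.

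The BAG proteins, which release clients from HSP70 or steer them to degradation, had a median of -0.24 over 5 genes, which became -0.13 with normexp and -0.15 without IL-17A replicate 1. All 5 were lower in mean under each scaling. In 4 of them all IL-17A arrays lay below the controls, as they did in 19.3% of all tested genes. With scan as a block 4 of the 5 were lower and the median was -0.14. BAG5, which also slows the degradation of clients, measured 9.10, 9.01 and 8.93 with IL-17A and 9.34, 9.32 and 9.28 in the controls. BAG5 fell by 0.30 ± 0.0541 (SE, n = 3 per group; limma, adjusted p = 0.0394), and with scan as a block it stood at -0.22.

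BAG3, which is heat-inducible and routes clients to autophagy, measured 3.18, 2.25 and 2.72 with IL-17A and 3.02, 3.07 and 3.32 in the controls. IL-17A replicate 1 was as high as the controls, and only 2 of the 3 IL-17A arrays were well above background. The difference of -0.42 ± 0.242 (SE, n = 3 per group; limma, adjusted p = 0.286) turned to 0.04 with scan as a block. BAG4, BAG1 and BAG2 stood at -0.24, -0.12 and -0.10 with adjusted p-values of 0.139, 0.0815 and 0.168 in limma. The second probe of BAG4 was at -0.02 with overlapping groups. At its dimmest probe BAG1 read 10.53, 10.57 and 10.58 against 10.84, 10.83 and 10.86 and fell by 0.28 (limma, adjusted p = 0.0315).

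The 7 measured CCT genes, whose products sit side by side in the same ring, did not share a direction. TCP1 (CCT1) measured 10.85, 10.79 and 10.79 with IL-17A and 10.99, 11.06 and 11.04 in the controls. Without overlap, TCP1 fell by 0.22 ± 0.0403 (SE, n = 3 per group; limma, adjusted p = 0.0418), and stood at -0.18 with scan as a block. Its second probe stood at -0.13 with overlapping groups. CCT5 stood at -0.25 (adjusted p = 0.0968), CCT7 at -0.08 and CCT3 at -0.06. CCT4, CCT2 and CCT8 lay higher by 0.17, 0.11 and 0.06 on all 3 IL-17A arrays, and the lowest adjusted p among them was 0.0621 for CCT4 (limma), whose second probe was at -0.01. At the 75th percentile the values of CCT4, CCT2 and CCT8 were 0.11, 0.05 and 0.02.

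HSPD1 (HSP60) and HSPE1 (HSP10) form the folding chamber of mitochondria and are divergent neighbours in the genome. HSPD1 measured 15.04, 15.03 and 15.03 with IL-17A and 14.80, 14.92 and 14.99 in the controls. The IL-17A arrays were nearly level and above the controls, by 0.13 ± 0.0571 (SE, n = 3 per group; limma, adjusted p = 0.19), but the value was -0.02 at the 75th percentile. HSPE1 measured 14.38, 14.52 and 14.39 against 14.49, 14.50 and 14.51, so that IL-17A replicate 2 was the highest array and the other IL-17A arrays the lowest. The difference was -0.07 ± 0.0487 (SE, n = 3 per group; limma, adjusted p = 0.377), and -0.20 at the 75th percentile, again without a call.

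HSPB1 (HSP27), a small heat shock protein that holds unfolded proteins without ATP, measured 14.66, 14.57 and 14.57 with IL-17A and 14.88, 14.79 and 14.74 without. The groups did not overlap, and the difference was -0.20 ± 0.054 (SE, n = 3 per group; limma, adjusted p = 0.0725). It was -0.32 at the 75th percentile and -0.23 with normexp, with a call in both. Its second, dim probe read 5.73, 5.71 and 5.66 against 5.99, 5.92 and 5.87 and fell by 0.22 (limma, adjusted p = 0.0498).

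Both heat shock factors lay higher with IL-17A, in the direction opposite to most chaperone genes, and neither was called. HSF1, the main activator of the heat shock response, measured 13.21, 13.31 and 13.26 with IL-17A and 12.95, 12.99 and 13.15 in the controls. The difference was 0.23 ± 0.0661 (SE, n = 3 per group; limma, adjusted p = 0.0858), and its other probes gave 0.16 and 0.21. HSF2, which can form mixed trimers with HSF1, measured 10.04, 10.10 and 10.04 against 9.86, 9.91 and 9.99, a difference of 0.14 ± 0.0489 (SE, n = 3 per group; limma, adjusted p = 0.123). At the brightest probe of both genes every IL-17A array lay above every control, and the values with scan as a block were 0.18 and 0.12.

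Members with a pair of inverted units in a promoter window and members without one overlapped in their changes. Of 17 tested members with the pair, 13 were lower and 4 higher, with a median log2 fold change of -0.12 and a range from -0.66 to 0.17. Of 19 whose windows held none, 13 were lower and 6 higher, with a median of -0.07 and a range from -0.42 to 0.30. The 6 genes with arrays of 3 units had a median of -0.08. Of the 7 sequences printed above, those of HSPA1A, DNAJB1, HSPA8, HSP90AA1 and HSPA1B belong to genes at -0.66, -0.24, -0.17, -0.12 and -0.08. Those of HSP90AB1 and HSPD1 belong to genes at 0.0027 and 0.13, both of which were below 0 at the 75th percentile.

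Chaperones outside the set were counted from lists in the same fit. Over all tested genes, 3.48% were called lower and 4.37% higher, and 14.8% and 16.9% were so at an unadjusted p under 0.05. These shares stand beside each list below. Of 45 other tested cytosolic chaperones and cochaperones, 4 fell and none rose (limma, adjusted p under 0.05; 3 were higher and 8 lower at an unadjusted p under 0.05), with a median log2 fold change of -0.02. In mean 25 were lower and 20 higher. HSPBP1, a nucleotide exchange factor of HSP70, fell by 0.40 (adjusted p = 0.0327), DNAJB12, a membrane-bound HSP40, by 0.32 (adjusted p = 0.0422), DNAJB5, another HSP40, by 0.25 (adjusted p = 0.0412) and CCT6A, a further CCT subunit, by 0.19 (limma, adjusted p = 0.0426). The second, dim probe of DNAJB5 had the opposite sign, at 0.24 with overlapping groups (limma, adjusted p = 0.386). With scan as a block none of the 4 was called, and the changes were -0.32, -0.42, -0.26 and -0.18. CCT6A therefore lay on the side of TCP1 within the ring.

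Of 15 tested chaperones of the endoplasmic reticulum, 2 rose and none fell (limma, adjusted p under 0.05; 4 higher and 2 lower at an unadjusted p under 0.05), with a median of 0.05. In mean 10 were higher and 5 lower, and 4.37% of all tested genes were called higher. DNAJB9 (ERdj4), a cofactor of BiP, measured 9.77, 9.74 and 9.75 with IL-17A and 9.54, 9.55 and 9.52 without, and rose by 0.22 (limma, adjusted p = 0.033). HSP90B1 (GRP94), the HSP90 of this compartment, measured 13.85, 13.88 and 13.88 against 13.65, 13.66 and 13.72 and rose by 0.19 (limma, adjusted p = 0.0457), with 0.07 and overlapping groups at its second probe. With scan as a block neither was called, at 0.24 and 0.17, and at the 75th percentile HSP90B1 stood at 0.13 without a call. HSPA5 (BiP), the HSP70 there, stood at 0.18 without overlap (limma, adjusted p = 0.115). The difference between the compartments was not tested.

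Of 9 other tested mitochondrial chaperones none was called (limma; 2 were lower at an unadjusted p under 0.05), and the median was -0.07. Of 13 further heat-inducible HSF1 targets, some of them also among the cytosolic chaperones counted above, DNAJB5 fell at its brightest probe and none rose (limma; 2 higher and 2 lower at an unadjusted p under 0.05). HSPA6, a strictly stress-induced HSP70 that is near silent in unstressed cells, stood at 0.67 (limma, adjusted p = 0.165), with 5.86, 5.96 and 5.84 after IL-17A and 5.73, 4.62 and 5.29 in the controls. Its second probe stood at 0.20 with overlapping groups. None of 10 housekeeping genes was called (limma; 1 was higher at an unadjusted p under 0.05), with a median of 0.0020. GAPDH stood at 0.0078 and ACTB at -0.10.

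All 14 B cell markers were well above background on all 6 arrays, with summed signals of 77090 to 78780 on the IL-17A arrays and 71620 to 74910 on the controls, and 1 of them, PRDM1, was called (0.38, limma, adjusted p = 0.0327), though not with scan as a block. In mean 10 were higher and 4 lower, and at an unadjusted p under 0.05 from limma 6 were higher and 1 lower. The 4 lower in mean were CD79A, at -0.17 without overlap, MS4A1, at -0.14, IRF4, at -0.10, and BLK, at -0.06. Of 7 T cell markers, 6 were tested, with summed signals of 1041 to 1139 with IL-17A and 1217 to 1412 without. Most of that sum was CD4, with 851 to 932 against 1008 to 1212. Of the 6 tested, 4 were lower in mean and 2 higher. CD3E fell by 0.46 (limma, adjusted p = 0.0401) and was not called with scan as a block. CD8A and CD4 stood at -0.51 and -0.31 without overlap, and CD3D at -0.11. The second probe of CD8A was at -0.06 with overlapping groups. CD2 stood at 0.51 without overlap and CD3G at 0.12, and TRAT1 was not well above background. CD14 was the only one of the 6 monocyte markers with a probe that was tested, and COL1A1 and PDGFRB were the only ones of 7 mesenchymal markers. The B and T cell sums moved with the groups, and their part in the chaperone values was not tested. The paper names no cells other than SU-DHL-2 in these cultures. In a bulk sample, a change in some cells and a change in all cells cannot be told apart. The IL-17A arrays detected 23580 to 23725 probes and the controls 23735 to 24079, no spot was saturated, and precision is limited by the small number of arrays.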

How the data were processed

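RNA of 3 IL-17A and 3 control samples of SU-DHL-2 was measured on 1-colour Agilent 4x44K arrays, grouped by sample title. The authors deposited 1 scanner file per array, made with Agilent Feature Extraction 11.0.1.1, with a linear, background-subtracted intensity per spot that was not normalized between arrays. They also deposited other flags of 0 or 1 for each spot, and a table of quantile-normalized log2 values of the same arrays, used as an alternative.

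Control spots and non-uniform spots (4 to 25 per array) were left out, intensities under 1 were set to 1, replicate spots were averaged per probe after taking log2 (43118 spots, 34127 probes), and quantile normalization followed. A probe was detected where at least 50% of its spots were positive, significant and well above background, and the 23945 probes (70.2%) detected on at least 3 of 6 arrays were tested with limma 3.58.1 in R 4.3.3, two-sided, without covariates, with Benjamini-Hochberg adjustment. Probes were named through RefSeq accessions (gene names of GRCh38.p14, 25771 probes), and a gene is its brightest tested probe. An exact permutation test of 3 against 3 cannot give a p under 0.1. The fit was run on simulated arrays with independent noise, no scan effect and changes larger than those of the called members. That run therefore does not test the calls made here.

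The members and lists were chosen with earlier results of these data known. Array values are given for called members, for members past a 1.5-fold change with p under 0.05, for 14 further members chosen by name, and for a few more (second probes, DNAJA2, CDC37, DNAJB9, HSP90B1 and HSPA6) named after their values were seen. Of the other lists, called genes, GAPDH, ACTB, HSPA5 and HSP90B1 are named by rule, and HSPA6 and the uncalled cell type markers were named after their values were seen.

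Alternatives were a 75th percentile or no normalization, normexp background correction (offset 50), the authors' table, other detection filters, a variance trend, dim signals raised to a floor, the test of the methods, a replicate block, scan as a block, the mean over probes, and each array left out.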

Additional observations from a re-analysis of the deposited data

How the results depend on the processing

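Of the 340 values for 19 named members under the alternatives, 263 kept direction and side of the threshold, 54 lost a call, 14 gained one and 9 turned sign, none of these called. Only the 5 called members could lose a call, so all 54 losses are theirs. The other named members count as kept where they stayed uncalled with the same sign. The 1818 called probes became 46 without normalization between arrays, 3846 with a variance trend, 4 with a replicate block, 48 with scan as a block, and 2 to 983 without 1 array. The share called higher was 58.3%, and 49.4% at the 75th percentile. The 5 called members became 3 at the 75th percentile (BAG5, DNAJA1 and HSPB1) and without a detection filter (FKBP4, TCP1 and HSPA9), 5 with the test of the methods (FKBP4, TCP1, BAG1, CCT8 and HSPA9), 0 without normalization, with a replicate block and with scan as a block, 12 with normexp and with the mean over probes, 17 with a variance trend, and 0 to 1 without 1 array. HSPA1A was the 1 member past 1.5-fold and p under 0.05 at the 75th percentile, without normalization and with a replicate block, and without 1 array the count was 0 to 1 (HSPA1A without control replicate 3, BAG3 without IL-17A replicate 1). The median of the members, -0.10, became -0.125 at the 75th percentile, -0.0647 with normexp, -0.057 with scan as a block, -0.082 over probes detected on all arrays, -0.092 without a filter, and -0.1155 to -0.0822 without 1 array. The 4 called other cytosolic chaperones became 0 without normalization, with a replicate block and with scan as a block, 2 with the test of the methods, and 0 to 2 without 1 array. HSP90AB1, 0.0027 on all arrays, turned to -0.0733 at the 75th percentile, -0.0476 without normalization, -0.0091 with normexp, and -0.0438 to 0.0557 without 1 array, HSPD1 to -0.0182 at the 75th percentile, and BAG3 and FKBP5 to 0.0432 and 0.0137 with scan as a block. The cause of these shifts was not tested. The labels do not say whether samples with the same replicate number belong together. Same-numbered deviations from the group means correlated at -0.09, -0.0022 and -0.05 over probes, and no sample correlated best with its own number. With so few arrays this cannot settle whether the samples were paired. Dim signals limit HSPA1A and BAG3.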
